A study of Homo sapiens with 4 samples.

Results

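The tensin genes TNS1, TNS2, TNS3 and TNS4 were followed in RNA of the MDA-MB-231 line, which was established from a human triple-negative breast cancer. They were taken by gene name from deposited count tables that hold 61471 gene names, and all 4 were found there. The study compared EGFP negative with EGFP positive cells, with 2 libraries each. EGFP negative cells are labelled with increased extravasation, the passage of tumour cells out of blood vessels, and EGFP positive cells are labelled without it. Both groups are wild type by their labels and carry a transfection of H2B-EGFP, a histone fused to a green fluorescent protein, and CMV-RFP, a red fluorescent protein under a viral promoter. The series title names polyploidy, and the labels state the ploidy of neither group. Whether libraries of 1 group stem from separate cultures is not stated, so errors and p-values cover the spread between the sequenced libraries alone, and that spread may be technical. EGFP status and extravasation status changed together and cannot be told apart.

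Tensins are adaptor proteins of focal and fibrillar adhesions, the sites where integrins tie the matrix to actin filaments. Tensin 1, tensin 2 and tensin 3 carry an N-terminal region that takes part in actin binding, and all tensins end in an SH2 domain, which binds phosphotyrosine, and a PTB domain, which binds integrin beta tails. TNS4 encodes cten, a short tensin that lacks the N-terminal part and its actin-binding activity. In cultured mammary epithelial cells, EGF is known to lower tensin 3 and raise cten, an exchange described there in cell migration. The 4 genes were taken by name, but the family was selected on its known differences in counts between these same groups, so the values of the 4 genes are given as a description, without a test.

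The genes differ in size and place, given here in GRCh38 coordinates. TNS1 lies on chromosome 2 from 217799588 to 218010421 (minus strand) and TNS2 on chromosome 12 from 53046969 to 53064379 (plus strand). TNS3 lies on chromosome 7 from 47275154 to 47582558 and TNS4 on chromosome 17 from 40475834 to 40501623, both on the minus strand. The longest coding sequence in GENCODE 29 had 1860 codons for TNS1, 1419 for TNS2, 1445 for TNS3 and 715 for TNS4, so that the TNS4 product is the shortest. Merged exons, the stretch over which fragments were counted, came to 12043 bp for TNS1, 5243 bp for TNS2, 8729 bp for TNS3 and 4087 bp for TNS4.

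Promoter sequences from RefSeq (GRCh38.p14), running from 250 bases before to 50 bases after a transcript start, matched 3 tensins by symbol, all but TNS4. They are shown because TNS1 and TNS2 were higher and TNS3 lower in EGFP negative cells. Of the starts listed per gene, the one nearest to the deposited 5′ end of the gene was taken among those whose last 25 bases occurred in a GENCODE 29 transcript of that gene. Which start these cells use was not measured. Capitals mark GGGCGG, the box of the factor SP1, on either strand.
TNS1 chr2:218010226-218010525, minus strand: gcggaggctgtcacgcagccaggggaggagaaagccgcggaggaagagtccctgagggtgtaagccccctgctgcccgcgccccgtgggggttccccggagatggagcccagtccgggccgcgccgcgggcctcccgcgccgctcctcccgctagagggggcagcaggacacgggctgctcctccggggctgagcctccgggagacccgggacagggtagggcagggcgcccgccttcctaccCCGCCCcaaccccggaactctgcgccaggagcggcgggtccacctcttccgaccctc
TNS2 chr12:53046741-53047040, plus strand: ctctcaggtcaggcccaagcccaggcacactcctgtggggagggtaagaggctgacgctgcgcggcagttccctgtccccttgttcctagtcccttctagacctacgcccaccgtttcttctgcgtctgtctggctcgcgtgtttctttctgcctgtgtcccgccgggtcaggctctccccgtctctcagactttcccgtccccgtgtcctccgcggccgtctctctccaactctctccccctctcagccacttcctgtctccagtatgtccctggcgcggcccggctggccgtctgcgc
TNS3 chr7:47582062-47582361, minus strand: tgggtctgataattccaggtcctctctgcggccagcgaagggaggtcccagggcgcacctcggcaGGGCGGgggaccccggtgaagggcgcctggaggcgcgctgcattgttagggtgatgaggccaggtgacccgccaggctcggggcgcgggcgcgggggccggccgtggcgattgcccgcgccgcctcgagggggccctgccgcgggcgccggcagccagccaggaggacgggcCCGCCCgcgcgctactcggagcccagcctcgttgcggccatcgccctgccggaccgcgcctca
The TNS1 window held 1 SP1 box and the TNS3 window 2, while the TNS2 window held none. The box was present in 45.0% of all 35116 promoters listed. None of the 3 windows held TGANTCA, the site of AP-1 (in 7.71% of all promoters), GGAATG, the site of TEAD factors (14.0%), or a CArG box, the site of SRF (1.29%), on either strand. The matches did not overlap. The count depended on the start taken: of the windows not shown, 1 of TNS2 held 2 SP1 boxes, and the 1 nearest the deposited 5′ end of TNS3 held none. Of the 4 TNS1 windows not shown, 2 held a TEAD site, at -217 and -98 from their starts. The windows shown held 29 CpG in TNS1, 21 in TNS2 and 38 in TNS3, against a median of 14.0 over all promoters. Those not shown held 6 to 7 CpG in TNS1, 2 and 31 in TNS2, and 10 and 20 in TNS3, with 10 in the TNS3 window nearest the deposited 5′ end.

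Gene counts summed to 12635576 and 11620076 in EGFP negative libraries 1 and 2, and to 11620005 and 11445076 in EGFP positive libraries 1 and 2. Levels are in CPM, the count of a gene scaled to a common library total, and a count of 3 corresponds to 0.237 to 0.262 CPM. Counting intervals cover counting error only. As a check of the labels, H2BC11, an H2B gene, had 88 and 64 counts in EGFP negative libraries and 7733 and 7352 in EGFP positive ones. All 4 genes listed as markers of this line were abundant, and they did not move together. VIM, encoding vimentin, was at 5800 CPM in EGFP negative and 4190 CPM in EGFP positive cells, CD44 at 639 CPM in EGFP negative and 863 CPM in EGFP positive cells, and EGFR at 478 CPM in EGFP negative and 600 CPM in EGFP positive cells, and all 3 passed the test (edgeR adjusted p = 0.0002, 0.00083 and 0.0059). MSN, encoding moesin, was at 982 CPM in EGFP negative and 1050 CPM in EGFP positive cells and did not pass (edgeR adjusted p = 0.39). The hormone receptor genes ESR1 and PGR and the epithelial cadherin gene CDH1 had at most 3 counts in any library, while GATA3, a luminal marker also listed as low in this line, had 109 to 130. Of 4 endothelial markers the summed level was 3.37 and 3.76 CPM in EGFP negative and 1.04 and 1.13 CPM in EGFP positive libraries. PECAM1 had 39 and 43 counts in EGFP negative and 9 and 9 in EGFP positive libraries and passed (edgeR adjusted p = 0.0015). In contrast, CDH5, which defines endothelium, was at 0 in every library. Fibroblast markers summed to 28.7 and 18.7 CPM in EGFP negative and 27.4 and 23.3 CPM in EGFP positive libraries, and leukocyte markers to 1.29 CPM or less in each library. Most of the fibroblast sum was COL1A1, which did not pass (edgeR adjusted p = 0.3). PDGFRB, another fibroblast marker, was at 5.15 CPM in EGFP negative and 2.51 CPM in EGFP positive cells and passed (edgeR adjusted p = 0.033).

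TNS2, TNS1 and TNS4 were each higher in EGFP negative cells and TNS3 was lower, while the summed CPM of the family overlapped between the groups. The sum of the 4 genes was 241 and 225 CPM in EGFP negative libraries and 225 and 238 CPM in EGFP positive ones. Per kb of exon, given further on, the total was higher in both EGFP negative libraries. TNS1, TNS2 and TNS4 together were 68.9 CPM higher in EGFP negative cells, and TNS3 was lower by nearly as much (EGFP negative minus EGFP positive, -67.7 CPM). In bulk RNA, a change in the number of cells that express a gene and a change in RNA per cell cannot be told apart. For 3 tensins both EGFP negative libraries lay above both EGFP positive ones, and for 1 both lay below. Such separation held upward for 28.1% and downward for 29.4% of the 16413 genes tested, or 57.5% in either direction.

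**Figure D1:**
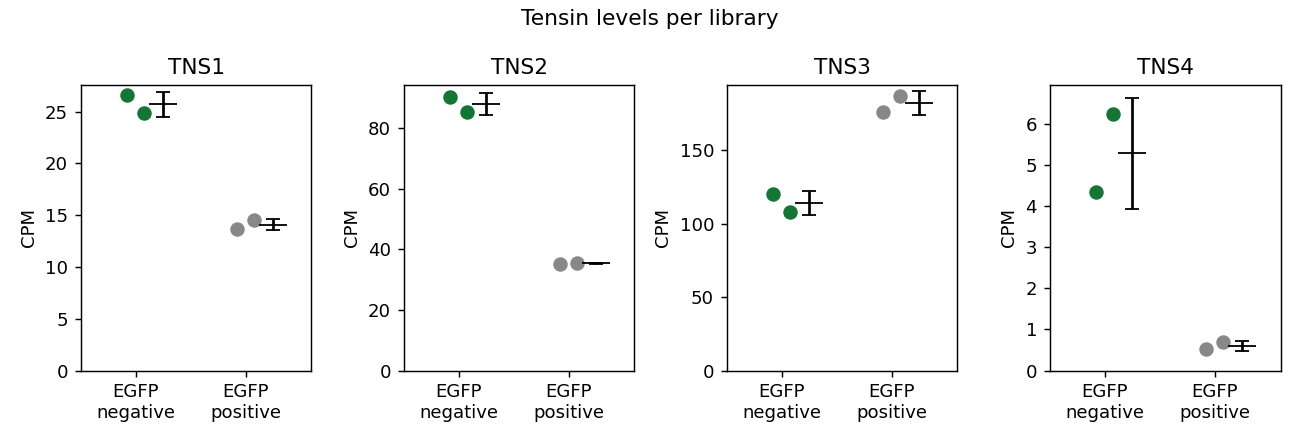
Level of each tensin in CPM (vertical axis, linear, from 0) in each library, with EGFP negative libraries in green and EGFP positive libraries in grey; the black mark and bar are the mean ± SD of 2 libraries. TNS1, TNS2 and TNS4 are higher and TNS3 is lower in both EGFP negative libraries.

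TNS3 encodes the tensin with the highest counts in every library. It had 1494 and 1266 counts in EGFP negative libraries 1 and 2, against 2038 and 2165 in EGFP positive libraries 1 and 2. Both EGFP negative libraries were below both EGFP positive ones. Its level was 114 ± 8.13 CPM in EGFP negative cells and 182 ± 8.18 CPM in EGFP positive cells (SD, n = 2 each). The log2 fold change, EGFP negative over EGFP positive as throughout, was -0.67 ± 0.09 (SE), a level 1.59-fold lower. Among the genes tested, 950 (5.79%) had a log2 fold change at least as low.

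TNS2 encodes tensin 2, also called C1-TEN for its N-terminal C1 domain, which has been described as a phosphatase acting on the insulin receptor substrate IRS-1. It had 1129 and 1000 counts in EGFP negative libraries, against 408 and 411 in EGFP positive libraries. The EGFP positive libraries nearly coincided, and both EGFP negative ones were far above them. Its level was 88.0 ± 3.53 CPM in EGFP negative cells and 35.4 ± 0.264 CPM in EGFP positive cells (SD, n = 2 each). The log2 fold change was 1.31 ± 0.10 (SE), or 2.49-fold, with a 95% counting interval of the ratio from 2.29 to 2.7. A log2 fold change at least as high was found in 258 genes (1.57%).

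TNS1 encodes tensin 1, the founding member, a component of fibrillar adhesions that binds actin. It had 332 and 291 counts in EGFP negative libraries, against 159 and 167 in EGFP positive libraries. The lowest EGFP negative library was clearly above the highest EGFP positive one. Its level was 25.7 ± 1.22 CPM in EGFP negative cells and 14.1 ± 0.521 CPM in EGFP positive cells (SD, n = 2 each), a log2 fold change of 0.87 ± 0.14 (SE), or 1.83-fold. At least as high a log2 fold change was found in 628 genes (3.83%).

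TNS4, encoding cten, was scarce. It had 54 and 73 counts in EGFP negative libraries, against 6 and 8 in EGFP positive libraries. The groups did not overlap, and the EGFP negative libraries differed from each other more than for any other tensin relative to their mean. Its level was 5.28 ± 1.35 CPM in EGFP negative cells and 0.605 ± 0.124 CPM in EGFP positive cells (SD, n = 2 each). The log2 fold change was 3.10 ± 0.39 (SE), and the ratio from the summed counts of 127 and 14 was 8.68 with a 95% counting interval of 4.99 to 16.3. Its counts reached the minimum of 10 for testing only in EGFP negative libraries, so it entered the table through the group where it was high. A log2 fold change at least as high was found in 42 genes (0.256%).

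The make-up of the family shifted from TNS3 towards TNS2. TNS3 held 49.7% (95% exact binomial interval 47.8 to 51.5) and 48.1% (46.2 to 50.1) of the family counts in EGFP negative libraries 1 and 2, against 78.1% (76.4 to 79.6) and 78.7% (77.1 to 80.2) in EGFP positive libraries 1 and 2. TNS2 held 37.5% and 38.0% in EGFP negative libraries, against 15.6% and 14.9% in EGFP positive libraries. TNS1 held 11% and 11.1% in EGFP negative libraries, against 6.09% and 6.07% in EGFP positive libraries. Replicates of a group differed by less than 2 percentage points in each of these shares, far less than the groups did. TNS4 held 1.79% (1.35 to 2.34) and 2.78% (2.18 to 3.48) in EGFP negative libraries, against 0.23% (0.0844 to 0.499) and 0.291% (0.126 to 0.572) in EGFP positive libraries. The mean share of TNS3 thus differed by -29.5 percentage points (EGFP negative minus EGFP positive), that of TNS2 by 22.5, that of TNS1 by 4.97 and that of TNS4 by 2.02.

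**Figure D2:**
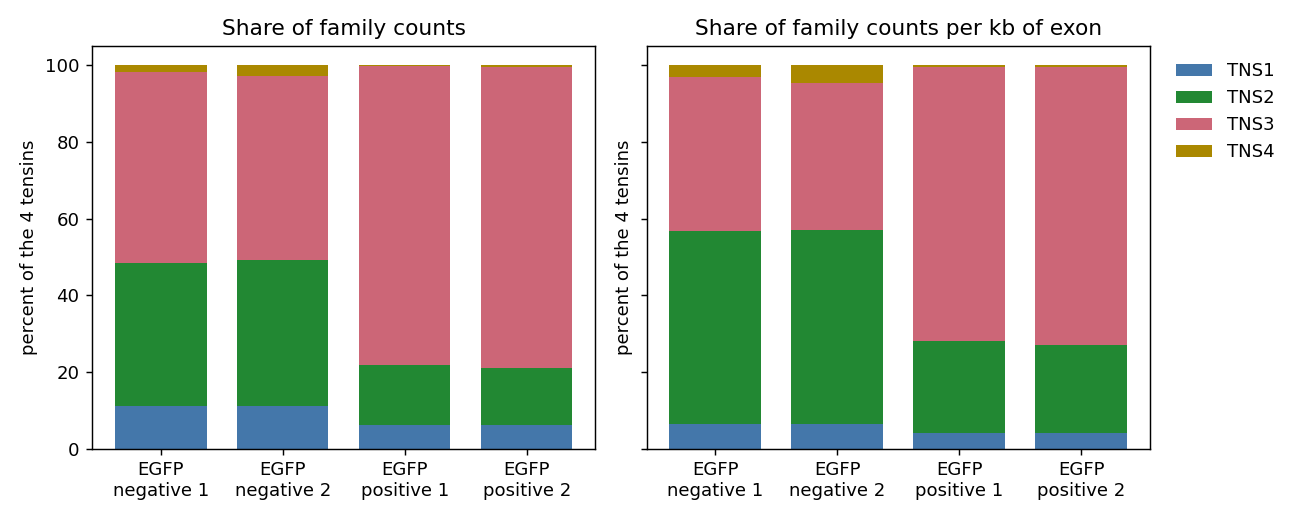
Share of each tensin in the family total (percent, stacked to 100), by counts at left and by counts per kb of merged exon at right, in each of the 4 libraries. TNS3 takes the largest part in EGFP positive libraries on both scales, and per kb TNS2 takes the largest part in EGFP negative libraries.

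Levels of different genes can be compared only per length. Per kb of merged exon, TNS2 was the highest tensin in EGFP negative cells, at 16.8 ± 0.673 CPM per kb against 13.1 ± 0.931 for TNS3, 2.14 ± 0.101 for TNS1 and 1.29 ± 0.331 for TNS4 (SD, n = 2 each). In EGFP positive cells TNS3 was the highest, at 20.8 ± 0.937 CPM per kb, followed by TNS2 at 6.75 ± 0.0503, TNS1 at 1.17 ± 0.0433 and TNS4 at 0.148 ± 0.0303. Each library of a group had this order, and neighbours in it differed by more than the spread between libraries in both groups. The ratio of TNS2 to TNS3 per kb was 1.26 and 1.32 in EGFP negative libraries, against 0.333 and 0.316 in EGFP positive libraries. With the length of the longest GENCODE 29 transcript in place of merged exons, a scale added after the data were seen, the ratio was 1.15 and 1.2 in EGFP negative and 0.304 and 0.289 in EGFP positive libraries, with the same order of genes. The family total per kb, unlike that of counts, did not overlap between groups, at 34.2 and 32.3 CPM per kb in EGFP negative libraries and 28.1 and 29.6 in EGFP positive ones.

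TNS3 and TNS4 are the pair described as exchanged under EGF in mammary cells. Of all pairs of tensins, their ratio differed most between the groups. This follows from the values above, as TNS3 alone was lower and TNS4 had the highest log2 fold change. Whether EGF bears on it was not tested. There were 27.7 and 17.3 TNS3 counts for each TNS4 count in EGFP negative libraries, against 340 and 271 in EGFP positive libraries. TNS3 remained above TNS4 per kb in every library, by 13.0 and 8.12 times in EGFP negative libraries and by 159 and 127 times in EGFP positive libraries. The EGFP positive ratios rest on 6 and 8 TNS4 counts.

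Fragments were counted without regard to strand, so genes on the other strand bear on TNS1 and TNS2. TNS2-AS1, an antisense RNA, overlaps 252 bp (4.81%) of the TNS2 exons, and SPRYD3, a coding gene on the other strand, 64 bp (1.22%). TNS2-AS1 had 37 and 30 counts in EGFP negative libraries and 12 and 14 in EGFP positive ones, a log2 fold change of 1.29 ± 0.37 (SE; edgeR adjusted p = 0.027). Its call was lost without EGFP positive library 1 (edgeR adjusted p = 0.19) or library 2 (0.11), and with DESeq2 (DESeq2 adjusted p = 0.14). Its counts were far below those of TNS2 in each library, and how reads of the pair were divided was not tested. SPRYD3 was at 34.9 CPM in EGFP negative and 30.3 CPM in EGFP positive cells and did not pass (edgeR adjusted p = 0.26). TNS1-AS1 shares 38 bp (0.316%) with TNS1 exons and had 0 counts in every library. TNS3 and TNS4 exons overlapped no exon of another gene.

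Among the surroundings of the 4 genes on their chromosomes, those of TNS2 held the most genes that passed. The shares around TNS1 and TNS4 were near that of all genes. Each tensin was set beside the 10 nearest tested genes on each side, tested with edgeR's quasi-likelihood method, by which 9.4% of the genes tested passed as higher in EGFP negative cells, 9.46% passed as lower and 18.9% passed in either direction. Around TNS2, within 1.03 Mb, 9 of 20 were higher and 1 lower, with a median log2 fold change of 0.35, against -0.0028 for all genes. The 9 included TNS2-AS1, whose exons overlap those of TNS2, and the hair keratin genes KRT81, KRT83, KRT85 and KRT86. They are thus not all separate from TNS2 or from each other. KRT81 was at 304 CPM in EGFP negative and 37.2 CPM in EGFP positive cells. IGFBP6, a binding protein of insulin-like growth factors also among the 9, was at 52.0 CPM in EGFP negative and 22.0 CPM in EGFP positive cells. Both were picked after their values were seen, and the KRT81 value is uncertain because hair keratin genes share long stretches of sequence. Without EGFP positive library 1 or 2, fewer of the 20 were called, all of them higher, and fewer of all genes passed as well. The epithelial keratin genes KRT8 and KRT18 in the same stretch had log2 fold changes of 0.09 and -0.10 and did not pass.

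Around TNS3, within 8.18 Mb, 0 of 20 genes were higher and 5 lower, with a median log2 fold change of -0.25. The count around TNS3 fell without EGFP positive library 1 and rose without EGFP negative library 2, as did the count over all genes. Its nearest tested genes were TTC4P1, a pseudogene, and the unnamed ENSG00000225507, with log2 fold changes of -0.62 and -0.56 that did not pass (edgeR adjusted p = 0.097 and 0.53). With 1 library left out, TTC4P1 ran from -0.87 to -0.39, passing without EGFP negative library 2 (edgeR adjusted p = 0.01), and ENSG00000225507 from -1.25 to -0.07, its ends being the values without EGFP negative library 2 and library 1. TTC4P1 also passed with the replicate number as a block (edgeR adjusted p = 0.035). Around TNS1, 2 were higher and 1 lower, with a median near 0. The count of 3 around TNS1 rose without EGFP negative library 1 and fell without EGFP positive library 2, as did the count over all genes. Its nearest tested genes were the pseudogenes RPL7L1P9 and HMGB1P9, with log2 fold changes of -0.07 and -0.36 that did not pass. Neither had a stable sign. RPL7L1P9 was at -0.29 without EGFP negative library 1 and 0.13 without library 2 of that group, and HMGB1P9 at -0.90 (edgeR adjusted p = 0.046) and 0.02. Around TNS4, 3 were higher and 1 lower, with a median of 0.09, and 0 of the 20 changed as much as TNS4. Next to it, IGFBP4, another binding protein of insulin-like growth factors, rose to 4590 CPM in EGFP negative cells, against 3150 CPM in EGFP positive cells (edgeR adjusted p = 1e-04). SMARCE1, a chromatin remodelling subunit on the other side, was at 41.0 CPM in EGFP negative and 31.6 CPM in EGFP positive cells and did not pass (log2 fold change 0.37; edgeR adjusted p = 0.088). That value rested on single libraries, at 0.60 without EGFP negative library 1, where it passed (edgeR adjusted p = 2.6e-06), and 0.12 without EGFP negative library 2. It also passed with the replicate number as a block (edgeR adjusted p = 0.0045). Whether the state of the region bears on a tensin's level was not tested.

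**Figure D3:**
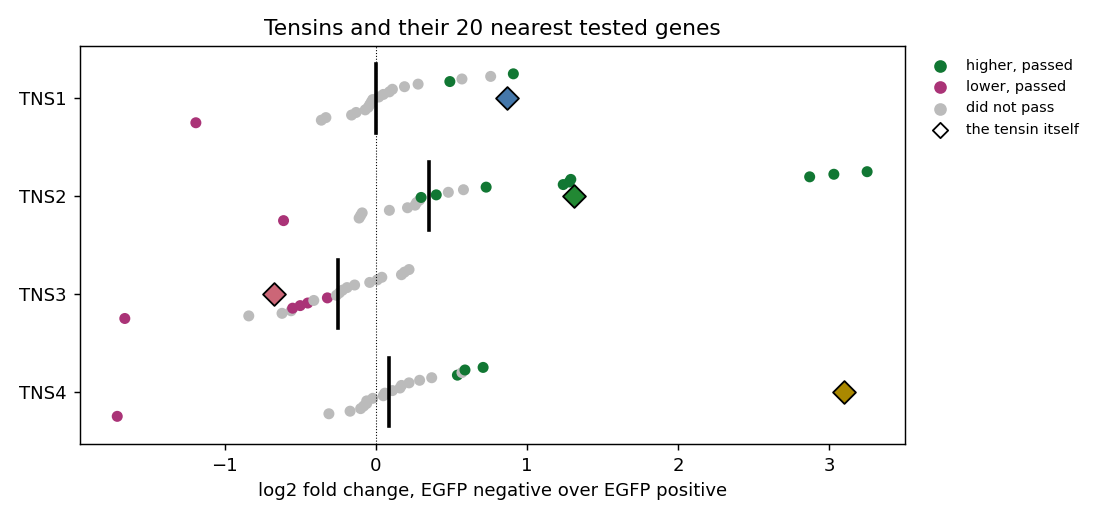
Log2 fold change, EGFP negative over EGFP positive (horizontal axis), of each tensin (diamond) and of its 20 nearest tested genes (points; black bar, median; colours mark genes that passed the edgeR test as higher or lower). TNS4 lies outside the range of its neighbours, whose highest log2 fold change is 0.71, while 3 neighbours of TNS2 changed by more than TNS2 itself.

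Genes whose pattern over the 4 libraries was most like that of a tensin were found by Euclidean distance between log2 CPM values centred on each gene's mean, among 12075 genes with a mean of at least 5 CPM. Nearest to TNS1 were AHNAK2, TPP1 and SYNJ2, at distances of 0.035 to 0.051. TPP1 encodes a lysosomal peptidase and SYNJ2 a phosphoinositide phosphatase. Nearest to TNS2 were MALL, EMP1 and TENT5C, at distances of 0.042 to 0.069, of which EMP1, encoding an epithelial membrane protein, averaged 644 CPM in EGFP negative and 256 CPM in EGFP positive cells. Nearest to TNS3 were CLOCK, DNAJC6 and GREB1L, at distances of 0.026 to 0.028. CLOCK, a circadian transcription factor, averaged 54.1 CPM in EGFP negative and 85.4 CPM in EGFP positive cells. Among the genes searched, TNS4 had none as near, with CMKLR1, PPP2R2C and AKR1C3 at distances of 0.354 to 0.478. TNS4 itself, at 5.28 CPM in EGFP negative and 0.605 CPM in EGFP positive cells, averaged below the minimum of 5 CPM. Genes at its own level were thus not searched. Each distance rests on 4 libraries in 2 groups.

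Other genes of tensin biology were read from 7 lists. Of 4 receptor kinases with a described tensin interaction, 0 were higher and 1 lower (25%, against 18.9% of all genes in either direction). EGFR fell to 478 ± 4.07 CPM in EGFP negative cells, against 600 ± 9.62 CPM in EGFP positive cells (SD, n = 2 each; edgeR adjusted p = 0.0059). Its call was lost without EGFP positive library 1 or library 2, at log2 fold changes of -0.34 and -0.31, where fewer of all genes passed too. EGFR, MET and ERBB2 passed without either EGFP negative library and with the replicate number as a block, where more of all genes passed. MET, whose receptor cten has been found to stabilise, was at 210 CPM in EGFP negative and 248 CPM in EGFP positive cells (edgeR adjusted p = 0.063). AXL, a partner of tensin 2, was at 1620 CPM in EGFP negative and 1690 CPM in EGFP positive cells, and ERBB2 at 96.9 CPM in EGFP negative and 80.9 CPM in EGFP positive cells, and neither passed (edgeR adjusted p = 0.62 and 0.057).

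Of 8 listed ligands of the EGF receptor family, NRG1 among them, 7 were tested. Of these, 3 passed as higher and 1 as lower (57.1%, against 18.9% of all genes in either direction). The list is called EGF receptor ligands further on, although it covers the whole receptor family. TGFA, encoding transforming growth factor alpha, rose to 91.8 ± 3.38 CPM in EGFP negative cells, against 56.3 ± 2.32 CPM in EGFP positive cells (edgeR adjusted p = 0.00013), and EREG, encoding epiregulin, to 8.07 ± 0.0761 CPM, against 4.5 ± 0.866 CPM in EGFP positive cells (edgeR adjusted p = 0.018; SD, n = 2 each). AREG, encoding amphiregulin, fell to 12.4 ± 0.0785 CPM in EGFP negative cells, against 27.5 ± 0.243 CPM in EGFP positive cells (SD, n = 2 each; edgeR adjusted p = 4.5e-05). EGF itself was the other ligand that passed as higher, on few counts. It had 44 and 49 counts in EGFP negative and 10 and 26 in EGFP positive libraries (edgeR adjusted p = 0.031). Without EGFP positive library 1 the count of the list fell, as did that over all genes. EREG lost its call there, at a log2 fold change of 0.66, and so did EGF. EREG also lost its call with DESeq2 (DESeq2 adjusted p = 0.074), as did EGF. The list's median log2 fold change was 0.71, against -0.0028 for all genes.

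Feedback and early targets of the MAPK pathway, which the EGF receptor drives, had 7 higher and 2 lower of 15 tested (60.0%, against 18.9% of all genes in either direction), with a median log2 fold change of 0.25. SPRY4, an inhibitor of receptor kinase signalling, rose to 205 ± 5.07 CPM in EGFP negative cells, against 126 ± 4.3 CPM in EGFP positive cells (SD, n = 2 each; edgeR adjusted p = 4e-05). The phosphatase gene DUSP4 rose to 986 CPM, against 664 CPM in EGFP positive cells, and FOSL1, a subunit of AP-1, to 513 CPM, against 348 CPM in EGFP positive cells (edgeR adjusted p = 9.4e-05 and 0.00019). Other members went down. DUSP5 and MYC were lower, with log2 fold changes of -0.31 and -0.30, and DUSP6, at -0.21, did not pass (edgeR adjusted p = 0.035, 0.019 and 0.081). The list's count fell without either EGFP positive library, as did that over all genes. DUSP5 and MYC lost their calls in each of those fits. SPRY4, DUSP4 and FOSL1 kept log2 fold changes of 0.67 to 0.74, 0.51 to 0.64 and 0.49 to 0.63 with 1 library left out.

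The adhesion core that tensins join had 5 higher and 2 lower of 17 tested of 20 listed (41.2%, against 18.9% of all genes in either direction), with a median of 0.06. ITGA5, the fibronectin receptor subunit on which fibrillar adhesions form, rose to 170 ± 4.17 CPM in EGFP negative cells, against 132 ± 1.11 CPM in EGFP positive cells (SD, n = 2 each; edgeR adjusted p = 0.0067). PARVA, an actin-binding partner of integrin-linked kinase, rose to 200 CPM, against 158 CPM in EGFP positive cells, and the talin-binding KANK2 to 268 CPM, against 210 CPM in EGFP positive cells (edgeR adjusted p = 0.0086 and 0.0076). These rises were modest, with log2 fold changes of 0.34 to 0.36. The 2 lower genes, TLN2 and FERMT1, had log2 fold changes of -0.41 and -0.42 (edgeR adjusted p = 0.016 and 0.031). The calls of this list were lost without either EGFP positive library, where fewer of all genes passed too.

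Kinases and adaptors of adhesions had 1 higher and 5 lower of 13 tested (46.2%, against 18.9% of all genes in either direction), with a median of -0.12. ABL2, a kinase of adhesion and cytoskeleton, fell to 153 ± 5.53 CPM in EGFP negative cells, against 272 ± 19.8 CPM in EGFP positive cells (SD, n = 2 each; edgeR adjusted p = 1.1e-05). The SRC family kinase gene FYN fell to 55.3 CPM, against 78.0 CPM in EGFP positive cells, and the ubiquitin ligase gene CBL to 125 CPM, against 170 CPM in EGFP positive cells (edgeR adjusted p = 0.0022 and 0.0025). SRC was the 1 higher gene, with a log2 fold change of 0.55 (edgeR adjusted p = 0.023). The count fell without either EGFP positive library, as did that over all genes. FYN lost its call without library 1 of that group, at a log2 fold change of -0.46, and CBL without library 2, at -0.38.

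Actin filament genes had 1 higher and 6 lower of 19 tested of 20 listed (36.8%, against 18.9% of all genes in either direction), with a median of -0.14. TPM1, encoding a tropomyosin, fell to 65.0 ± 8.58 CPM in EGFP negative cells, against 116 ± 2.95 CPM in EGFP positive cells (edgeR adjusted p = 6.2e-05), and ACTN1, encoding alpha-actinin, to 785 ± 43.9 CPM, against 1060 ± 25.8 CPM in EGFP positive cells (edgeR adjusted p = 8e-04; SD, n = 2 each). ZYX, encoding the adhesion protein zyxin, rose to 138 ± 15.3 CPM in EGFP negative cells, against 87.5 ± 3.71 CPM in EGFP positive cells (SD, n = 2 each; edgeR adjusted p = 0.00029). The count of 7 rose without EGFP negative library 1 and fell without EGFP positive library 2, as did the count over all genes.

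In the insulin and AKT axis, on which tensin 2 has been described to act, 1 was higher and 0 lower of 11 tested of 12 listed (9.09%, against 18.9% of all genes in either direction). IRS2, an insulin receptor substrate, rose to 89.2 ± 17.7 CPM in EGFP negative cells, against 65.3 ± 4.07 CPM in EGFP positive cells (SD, n = 2 each; edgeR adjusted p = 0.019). Its call was lost without EGFP positive library 2, at a log2 fold change of 0.39. The log2 fold change of IRS2 was 0.23 without EGFP negative library 1 and 0.65 without library 2 of that group. The count of this list rose without either EGFP negative library, as did that over all genes. The list's median log2 fold change was 0.02 with all libraries.

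**Figure D4:**
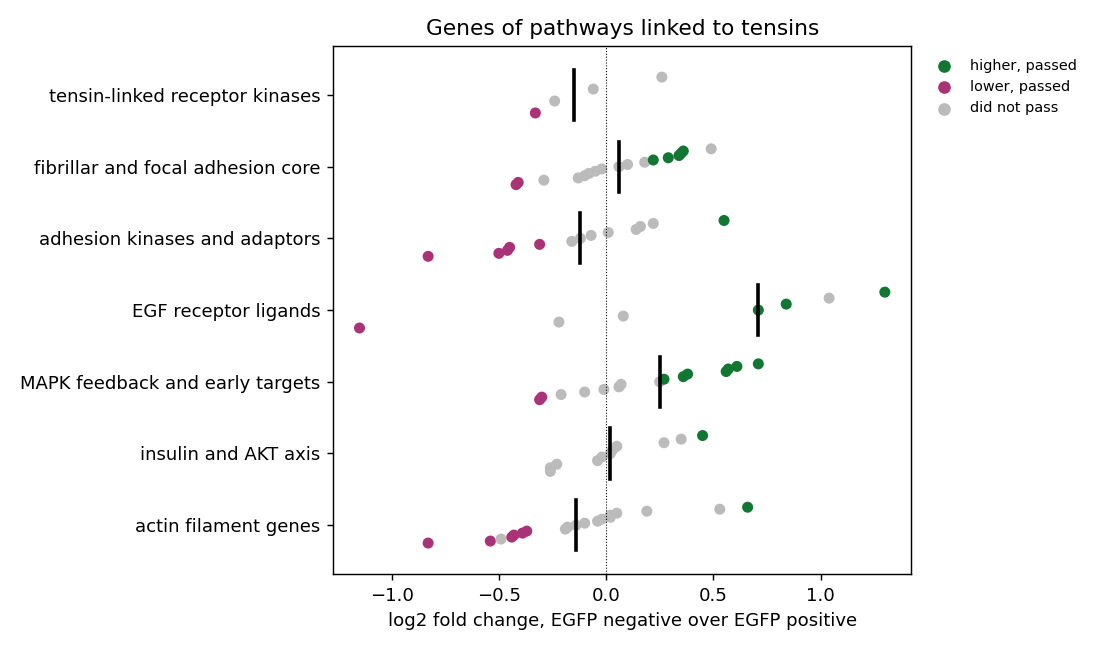
Log2 fold change, EGFP negative over EGFP positive (horizontal axis), of the tested genes of 7 lists linked to tensins (points; black bar, median; colours mark genes that passed the edgeR test as higher or lower). EGF receptor ligands and MAPK targets have medians of 0.71 and 0.25, and the medians of the other lists lie between -0.15 and 0.06.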

How the data were processed

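Whole-number fragment counts per gene name were deposited for each of 4 libraries; per the file headers the authors made them with featureCounts 2.0.1 over exons of the GENCODE 46 basic annotation, for paired reads and with no strand option. Per the labels' protocols the RNA was selected by polyA tail and the libraries were stranded. The submitters' processing notes also name Subread, GRCh37 and hg19; the deposited coordinates are those of GRCh38, and the aligner is not given in the sources used here. Lengths are those of merged exons in the deposited tables.

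Genes were filtered with filterByExpr (minimum count 10, minimum total 15), leaving 16413. All 4 libraries entered edgeR 4.0.16 (R 4.3.3) with TMM scaling (factors 0.9875 to 1.009) and group as the only term; its quasi-likelihood test was two-sided, with Benjamini-Hochberg adjustment over all genes and a threshold of 0.05. A permutation of 2 against 2 libraries cannot go below p = 0.33. Replicates differed by more than sampling noise (chi-square per degree of freedom 6.67 in EGFP negative and 2.12 in EGFP positive libraries). Fold change errors are the log2 fold change over the square root of F. The tensins and the lists were chosen with earlier results of these data known. Genes named by rule were all tested members of lists of 5 or fewer, up to 3 called members with the smallest adjusted p of each other list, the nearest neighbours, and the 3 nearest patterns per tensin. Markers, H2BC11, other neighbours and a few other list members were named outside this rule. Genes of 2 further lists are not reported here. Sequences are RefSeq's.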

Additional observations from a re-analysis of the deposited data

How the results depend on the processing

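The direction of each tensin's difference held under RLE and upper quartile scaling, no filter, a stricter filter, DESeq2, the replicate number as a block and each library left out. Leaving out 1 library gave log2 fold changes of 0.82 to 0.93 for TNS1, 1.27 to 1.36 for TNS2, -0.75 to -0.59 for TNS3 and 2.83 to 3.34 for TNS4, and share differences of 4.95 to 4.98 points for TNS1, 22.1 to 22.8 for TNS2, -30.2 to -28.7 for TNS3 and 1.53 to 2.52 for TNS4. Share differences per kb of merged exon were 2.37, 27.1, -32.8 and 3.4 points for TNS1 to TNS4, and per kb of the longest transcript 2.58, 26.6, -32.4 and 3.15; these follow from the lengths used. The difference in family total ran from -6.93 to 9.37 CPM and had no fixed sign.

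Calls of other genes depended on the fit. All genes called numbered 3095; 2041 by DESeq2, 4704 with the replicate block, and 1452 to 4942 with 1 library left out (1499 and 1452 without EGFP positive library 1 or 2, 4496 and 4942 without EGFP negative library 1 or 2). DESeq2 called 4 of the adhesion core, 2 EGF receptor ligands and 3 neighbours of TNS3. Upper quartile scaling called 2 of the receptor kinases. With the replicate block 3 receptor kinases, 5 genes of the insulin axis and 5, 10 and 7 neighbours of TNS1, TNS3 and TNS4 were called. Replicate numbers are shared by groups, but nothing in the labels pairs them, and the deviations of same-numbered libraries correlated at 0.114 across genes. With 1 library left out, the called genes ranged from 0 to 3 of the receptor kinases, 0 to 8 of the adhesion core, 2 to 9 of the adhesion kinases, 2 to 5 EGF receptor ligands, 4 to 11 MAPK targets, 0 to 3 of the insulin axis and 4 to 12 actin genes. Neighbours called ranged from 1 to 7 (TNS1), 6 to 12 (TNS2), 1 to 11 (TNS3) and 3 to 6 (TNS4). Of the genes named by rule outside the family, 31 passed with all libraries, and some lost the call in at least 1 of these fits. Log2 fold changes from such fits are not given for genes named outside that rule, among them VIM, CD44, KRT81, IGFBP6, DUSP5 and MYC. The causes were not tested. Depth limits TNS4 most, with 6 and 8 counts in EGFP positive libraries.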
